A study of Mus musculus with 8 samples.

Results

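Serpin genes encode a superfamily of protease inhibitors, and 39 of them, read by 54 probe sets, were followed among the 17097 genes measured on the arrays. Members were chosen by gene symbol alone: a probe set counted if its single platform symbol began with Serpin, a clade letter from a to i and a digit, and Serping1 was left out by the same rule. The family itself was picked on measured values, because earlier results of these arrays had shown Serpina3n lower and Serpinb3a higher in G9a cKO. All G9a cKO against G9a WT values below are therefore a description of the family, with no test of it.

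The arrays compared 4 animals labelled G9a cKO, in which the gene of G9a, an enzyme that methylates lysine 9 of histone H3, was conditionally knocked out, with 4 animals labelled G9a WT. Every animal, of either genotype, had received the mutagen DMBA (0.25 mg/ml) and the tumour promoter TPA (0.02 mg/ml), 200 µl of each in acetone, on shaved back skin, starting at 8 weeks of age and repeated each week over 6 weeks. RNA came from epidermal bulge cells, the stem cell compartment of the hair follicle, of mice given as 15 weeks old, before tumours formed. The sources used here do not name the promoter that drove the deletion, the way bulge cells were isolated or the sex of the animals.

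Inhibitory serpins trap a protease in a single use: the protease cuts an exposed reactive loop, the serpin changes shape, and both proteins stay locked together. Clades are named by letter. Clade a holds mostly secreted plasma proteins, clade b holds intracellular inhibitors, many of them made by keratinocytes, and the remaining clades include the coagulation inhibitors antithrombin (Serpinc1) and heparin cofactor II (Serpind1), the anti-angiogenic PEDF (Serpinf1) and the collagen chaperone HSP47 (Serpinh1). In skin, clade b serpins hold back proteases of keratinocytes, immune cells and dying cells, and several are markers of squamous epithelium or its tumours.

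The start regions of the 3 members that differed most, Serpina3n, Serpinb3a and Serpinb6b, are shown because their values carry the results. Each run covers 250 bases before to 50 after the annotated gene start (RefSeq, GRCm38.p6), at chr12:104406458-104406757 on the plus strand, chr1:107052254-107052553 on the minus strand and chr13:32965011-32965310 on the plus strand. Capitals mark TATAAA, found in the Serpinb3a window. It occurred on either strand in 9 of 39 serpin regions (23.1%), against 13.6% of the 32851 mouse start regions of this length.
Serpina3n: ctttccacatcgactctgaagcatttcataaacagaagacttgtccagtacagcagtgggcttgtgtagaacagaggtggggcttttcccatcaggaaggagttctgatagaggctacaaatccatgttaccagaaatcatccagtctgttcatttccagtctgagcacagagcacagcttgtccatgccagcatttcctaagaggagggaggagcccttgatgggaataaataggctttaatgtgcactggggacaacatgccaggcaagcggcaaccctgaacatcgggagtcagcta
Serpinb3a: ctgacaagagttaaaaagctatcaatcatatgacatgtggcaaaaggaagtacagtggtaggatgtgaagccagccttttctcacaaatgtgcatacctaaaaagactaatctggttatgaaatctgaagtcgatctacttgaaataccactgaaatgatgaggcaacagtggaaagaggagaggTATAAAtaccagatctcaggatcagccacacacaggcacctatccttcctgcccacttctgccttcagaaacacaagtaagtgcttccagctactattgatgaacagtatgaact
Serpinb6b: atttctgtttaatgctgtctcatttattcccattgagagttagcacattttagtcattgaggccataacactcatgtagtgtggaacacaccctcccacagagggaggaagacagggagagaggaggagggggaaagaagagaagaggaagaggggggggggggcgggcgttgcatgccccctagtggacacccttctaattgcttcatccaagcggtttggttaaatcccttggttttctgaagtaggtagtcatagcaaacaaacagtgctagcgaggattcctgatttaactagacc

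Of the 39 members, 34 had at least 1 start region in the table, 39 regions in all. They were searched on both strands, and overlaps between motifs were kept. The search used TGANTCA, a loose form of the site of AP-1, which TPA activates, with the middle base left free. It also used the palindromic STAT motif, TTC and GAA with 3 free bases between them. TGANTCA stood in 11 of the 39 regions (28.2%), against 7.81% of all mouse start regions, and the STAT motif in 8 (20.5%), against 8.30%; regions of close paralogs, and overlapping regions of a gene, are not independent. Neither motif stood in the 3 windows above. Of the 7 clade b members on chromosome 1, 6 had TGANTCA in a start region, and Serpinb3a, the member of that cluster with the large difference, did not. The first site of each of the 6 is shown with its flanks, in order along the chromosome and in capitals, to let the copies be compared.
Serpinb5: aagttgggccTGAATCAtgtcttccaa
Serpinb12: aaaaacaatcTGATTCAcgatcattat
Serpinb11: aagtatagtgTGATTCAgaaagcacag
Serpinb7: agggagtgtcTGAGTCAgaggctttat
Serpinb2: agtaaaatgtTGAATCAtacaaagaat
Serpinb8: gtgggaagtgTGAGTCAcagagtgttc
These 6 windows lie at chr1:106861025-106861051, chr1:106934394-106934420, chr1:107362123-107362149, chr1:107422634-107422660, chr1:107511319-107511345 and chr1:107589973-107589999, all on the plus strand. The middle base was G in Serpinb7 and Serpinb8 and A or T in the others, and the flanks differ among these copies. The remaining 4 genes with TGANTCA were Serpina1a, Serpina1b, Serpina1c and Serpina1d on chromosome 12, close paralogs in which it began 229 to 240 bases before the start. The median start region of the members held 4 CpG pairs, against 7 over all regions, with a range from 0 in Serpina3i, Serpinb11, Serpinb7 and 1 region of Serpinb12 to 25 in 1 of the 2 regions of Serpinb6a. A match of letters shows neither binding nor its absence.

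Values are log2 expression from RMA, which removes background, brings the arrays to one distribution and combines probes into 1 value a probe set, and array medians lay between 5.87 and 5.95. Ehmt2, which encodes G9a, read 5.54 to 6.44 in cKO arrays and 8.89 to 9.29 in WT arrays by 1 probe set, and 8.39 to 8.43 in cKO and 8.40 to 8.42 in WT by the other; the sources used here do not say where the deleted part lies relative to either. All 9 follicle and basal keratinocyte markers were bright: Krt15, a bulge keratin, read 12.36 ± 0.03 in cKO and 12.26 ± 0.06 in WT, and Cd34, a surface marker of mouse bulge cells, read 10.45 ± 0.20 in cKO and 10.54 ± 0.13 in WT (mean ± SD, n = 4 each). A gene was called where its Benjamini-Hochberg adjusted p over all genes, from limma, was under 0.05. Single arrays weighed on the calls over all genes, which numbered 472 with all arrays, 796 without WT replicate 4 and 258 without cKO replicate 2. The brightness of a probe set does not rank transcripts of different genes, so members are described as dim where their mean over all arrays was under 5.67, the level below which 40% of genes lay.

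Serpina3n fell, and Serpinb3a and Serpinb6b rose, in cKO. Called members made up 3 of 39 (7.69%), 2 higher and 1 lower, beside 2.76% called over all genes, 1.92% higher and 0.836% lower. The called share includes Serpina3n and Serpinb3a, whose changes were the reason for picking the family. That choice raised the share, and no enrichment is read from it. The median log2 change over the family was -0.0080, beside 0.0027 over all genes. Of the 39 members, 34 (87.2%) changed by less than 0.25 in either direction, beside 93.9% of all genes. Values of the genotypes did not overlap in 5 members, 3 higher in cKO and 2 lower, beside 5.15% and 3.09% of all genes. Serpina3n and Serpinb3a are among these members too. Of the members, 28 were dim, and 1 of those, Serpinb6b, was called.

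**Figure D1:**
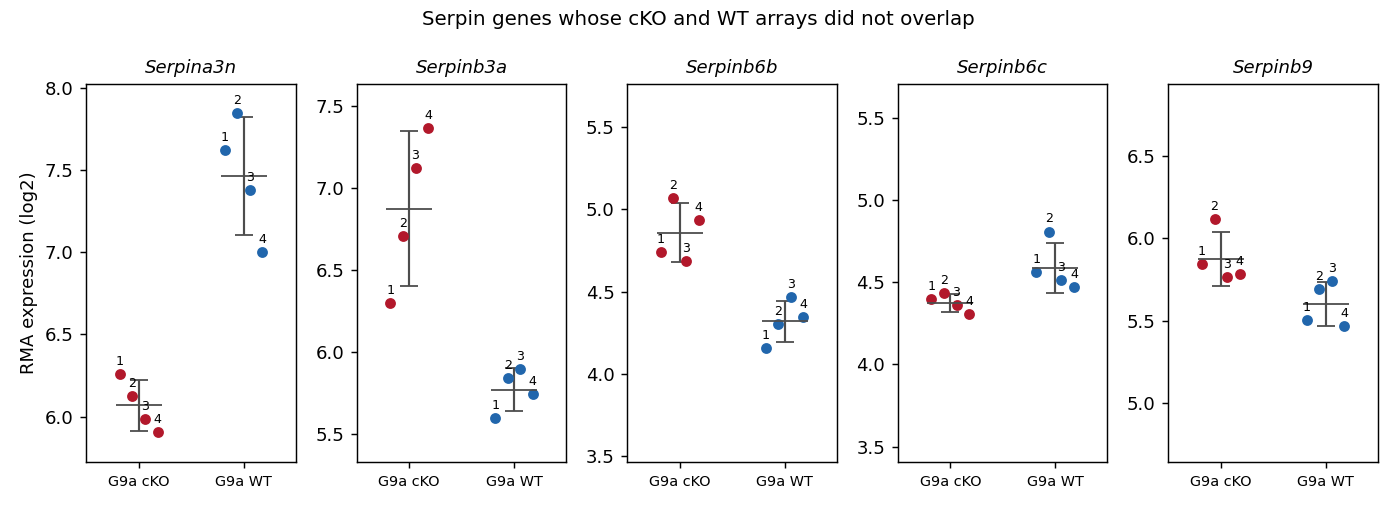
Log2 RMA expression of the 5 serpin genes whose G9a cKO arrays (red) and G9a WT arrays (blue) did not overlap; points are single animals labelled by replicate number, and bars are the mean and SD of 4, with similar log2 ranges in all panels. Serpina3n lies lower in cKO, Serpinb3a and Serpinb6b lie higher, and the gap between genotypes is narrow in Serpinb6c and Serpinb9.

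Serpina3n encodes a secreted inhibitor of the chymotrypsin-like and granzyme type, related to human alpha-1-antichymotrypsin and known as an acute phase protein. It read 6.26, 6.12, 5.99 and 5.91 in cKO arrays, against 7.62, 7.84, 7.38 and 7.00 in WT arrays. All 4 cKO arrays lay below the lowest WT array, WT replicate 4. The means were 6.07 ± 0.15 in cKO and 7.46 ± 0.36 in WT (SD, n = 4 each), a log2 change of -1.39 (SE 0.16), or 2.63-fold lower. In bulk RNA, fewer cells that make a transcript and less of it per cell cannot be told apart.

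Serpinb3a is a mouse counterpart of the human squamous cell carcinoma antigens, intracellular inhibitors of serine and cysteine proteases that stratified epithelia make under stress. It read 6.30, 6.71, 7.12 and 7.36 in cKO arrays, against 5.60, 5.84, 5.90 and 5.75 in WT arrays. Every cKO array was above every WT array, and the cKO animals spread more widely, with an SD of 0.47 in cKO and 0.13 in WT. The log2 change was 1.10 (SE 0.19), or 2.14-fold higher in cKO. Near-identical copies, Serpinb3b, Serpinb3c and Serpinb3d, lie next to it and are not analysed here, so signal from them in its probe sets is uncertain.

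Serpinb6b encodes an intracellular clade b inhibitor, reported in mouse to block granzyme A. It read 4.74, 5.07, 4.69 and 4.94 in cKO arrays, against 4.16, 4.30, 4.47 and 4.35 in WT arrays. The groups did not overlap, and the log2 change was 0.54 (SE 0.09), or 1.45-fold higher in cKO. Both group means, 4.86 ± 0.18 in cKO and 4.32 ± 0.13 in WT, were dim, where RMA compresses differences.

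Serpinb6c and Serpinb9, on the same chromosome, had separate groups without being called. Serpinb6c read 4.40, 4.44, 4.36 and 4.31 in cKO arrays, against 4.56, 4.81, 4.51 and 4.47 in WT arrays, a log2 change of -0.21 (SE 0.07). Serpinb9, an inhibitor of granzyme B that protects cells from cytotoxic granules, read 5.84, 6.12, 5.76 and 5.78 in cKO arrays, against 5.502, 5.69, 5.74 and 5.47 in WT arrays, a log2 change of 0.28 (SE 0.09). In each of these genes the nearest cKO and WT arrays were close together.

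The brightest probe sets of clade b belonged to serpins of keratinocytes, and none was called. Serpinb5 encodes maspin, a non-inhibitory serpin of epithelia known as a tumour suppressor, and read 10.83, 10.83, 10.93 and 10.91 in cKO arrays, against 10.84, 10.91, 10.95 and 11.003 in WT arrays. Its log2 change was -0.05 (SE 0.04). Serpinb11, an epithelial serpin whose mouse protein inhibits trypsin-like proteases, read 10.35, 10.64, 10.69 and 10.59 in cKO arrays, against 10.79, 10.69, 10.54 and 10.44 in WT arrays, a log2 change of -0.05 (SE 0.09). Serpinb8, an inhibitor of furin and trypsin-like proteases, read 10.11, 10.15, 10.30 and 10.29 in cKO arrays, against 10.19, 10.23, 9.98 and 10.09 in WT arrays, a log2 change of 0.09 (SE 0.07). The groups overlapped in all of them, with genotype means within 0.1 of each other. Serpinb6a, an inhibitor of cathepsin G and trypsin-like proteases, averaged 9.07 ± 0.07 in cKO and 9.10 ± 0.07 in WT (SD, n = 4 each), a log2 change of -0.03 (SE 0.06).

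**Figure D2:**
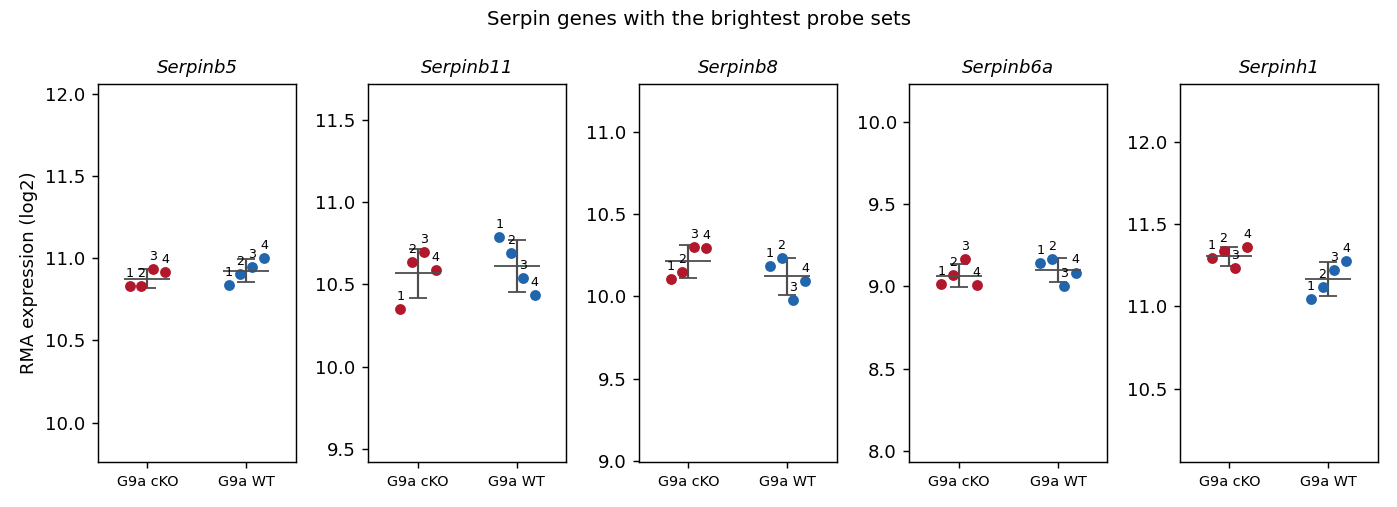
Log2 RMA expression of 5 serpin genes with bright probe sets, 4 of clade b and the collagen chaperone gene Serpinh1; points are single animals labelled by replicate number in G9a cKO (red) and G9a WT (blue), and bars are the mean and SD of 4. The genotypes overlap in all 5 panels, which span the same log2 range.

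Among other clade b members, Serpinb1a and Serpinb2 varied between animals of both genotypes. Serpinb7 varied mainly between WT animals, with an SD of 0.04 in cKO and 0.13 in WT. Serpinb1a, an inhibitor of neutrophil elastase and related proteases, read 7.10, 7.47, 7.31 and 7.07 in cKO arrays, against 7.58, 7.50, 7.69 and 7.04 in WT arrays. Serpinb2, the plasminogen activator inhibitor that blocks urokinase, read 4.82, 5.32, 4.98 and 4.43 in cKO arrays, against 5.26, 5.35, 5.24 and 4.64 in WT arrays. In both genes WT replicate 4 was low and lay apart from the other WT arrays, within or below the range of the cKO arrays. Their log2 changes were -0.22 (SE 0.14) for Serpinb1a and -0.23 (SE 0.19) for Serpinb2, and neither was called. Serpinb7, a dim member known from an inherited palmoplantar keratosis in people, read 3.95, 4.02, 4.04 and 3.999 in cKO arrays, against 3.67, 3.86, 3.83 and 3.98 in WT arrays. WT replicate 4 alone reached into the cKO range, and without that array Serpinb7 was called higher. These 3 genes, and Serpinb6a above, were named after their values were seen.

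Clade a held no other call. Of its 15 members 13 were dim, among them Serpina1a, Serpina1b, Serpina1c and Serpina1d, the mouse copies of alpha-1-antitrypsin, whose log2 changes lay between -0.02 and 0.04. Serpina3i, a relative of Serpina3n on the same chromosome, read 8.43, 8.33, 8.18 and 8.27 in cKO arrays, against 8.09, 8.45, 8.18 and 7.99 in WT arrays. Its groups overlapped and its log2 change was 0.13 (SE 0.10), opposite in sign to that of Serpina3n. Serpina11, a dim member, read 5.39, 5.30, 5.37 and 5.29 in cKO arrays, against 5.38, 5.37, 5.49 and 5.41 in WT arrays, a log2 change of -0.07 (SE 0.05). Over all 15 members the median log2 change was -0.0080, and over the 13 dim ones the changes ran from -0.09 to 0.15.

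**Figure D3:**
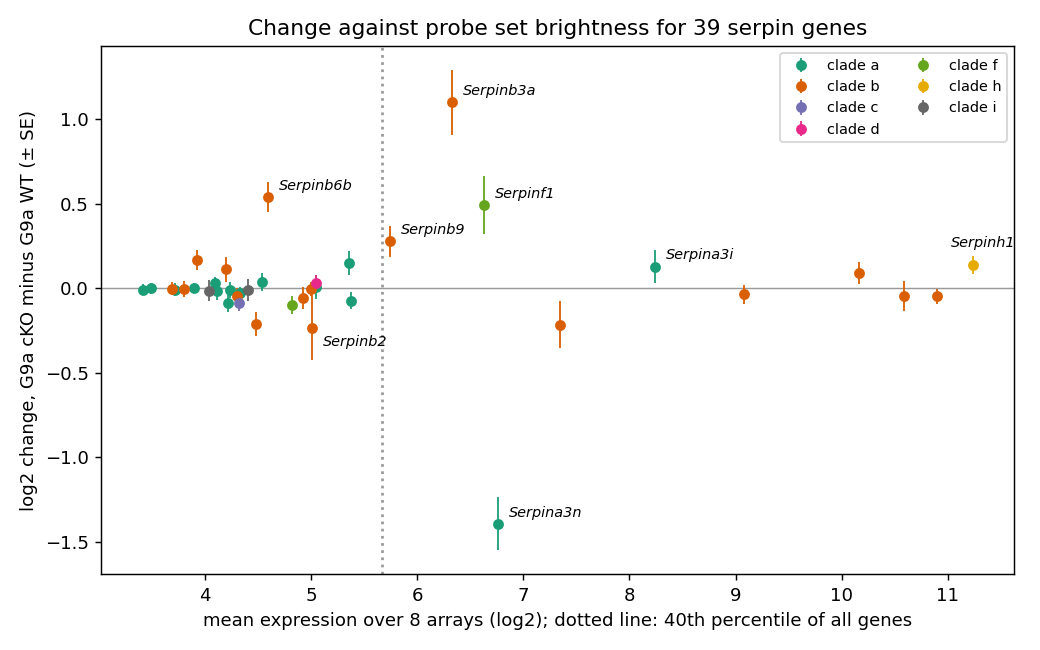
Log2 change, G9a cKO minus G9a WT, with its limma standard error, against the mean log2 expression over 8 arrays for the 39 serpin genes, coloured by clade; the dotted line at 5.67 is the level below which 40% of all genes lay. The dim genes cluster near 0 except Serpinb6b at 0.54, the brightest genes also lie near 0, and the large changes of Serpina3n and Serpinb3a lie at intermediate brightness.

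Outside clades a and b no member was called. Serpinh1, the chaperone of collagen folding, read 11.29, 11.33, 11.23 and 11.36 in cKO arrays, against 11.05, 11.12, 11.22 and 11.28 in WT arrays. The groups overlapped by a narrow margin, and the log2 change was 0.14 (SE 0.05). Serpinf1, which encodes the secreted anti-angiogenic factor PEDF, read 6.79, 7.11, 6.47 and 7.11 in cKO arrays, against 6.06, 6.30, 6.79 and 6.38 in WT arrays. WT replicate 3 lay inside the cKO range, and the log2 change of 0.49 (SE 0.17) was not called. The plasma and nervous system serpins outside clades a and b were dim. Serpinf2, alpha-2-antiplasmin, the main inhibitor of plasmin, read 4.92, 4.68, 4.76 and 4.73 in cKO arrays, against 4.81, 4.89, 4.92 and 4.86 in WT arrays, a log2 change of -0.10 (SE 0.06). Serpinc1, antithrombin, read 4.40, 4.23, 4.24 and 4.23 in cKO arrays, against 4.33, 4.34, 4.43 and 4.36 in WT arrays, a log2 change of -0.09 (SE 0.05). In both, cKO replicate 1 lay inside the WT range or at its edge and the other cKO arrays lay below it. Serpind1, heparin cofactor II, which inhibits thrombin, read 5.11, 5.04, 5.07 and 5.01 in cKO arrays, against 4.98, 4.96, 5.10 and 5.05 in WT arrays, a log2 change of 0.03 (SE 0.05). Serpini1, neuroserpin, an inhibitor of tissue plasminogen activator, read 4.56, 4.38, 4.41 and 4.23 in cKO arrays, against 4.37, 4.48, 4.40 and 4.36 in WT arrays, a log2 change of -0.0098 (SE 0.06). The pancreas serpin Serpini2 changed by -0.014 (SE 0.06), with cKO arrays at 4.21, 3.96, 3.91 and 4.01 and WT arrays at 3.98, 3.999, 4.12 and 4.05. The groups of these 3 genes overlapped.

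Along the chromosomes, each cluster held 1 called member. The RefSeq gene order placed 12 clade b genes on chromosome 1, of which 7 were analysed here. It placed 28 clade a genes and pseudogenes on chromosome 12, of which 15 were analysed. On chromosome 13 it placed 17 clade b genes and pseudogenes, of which 10 were analysed. Analysed genes are those with a probe set that carries their symbol alone. Serpinb3a was the 1 call of the chromosome 1 cluster, where the other 6 analysed genes changed by -0.23 to 0.17. Serpina3n, the last gene of the chromosome 12 cluster, was the 1 call there. Serpinb6b was the 1 call on chromosome 13. Its next analysed neighbours were Serpinb1a at -0.22 and Serpinb9 at 0.28, so the direction differed on its flanks. The 3 called genes lie on different chromosomes.

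**Figure D4:**
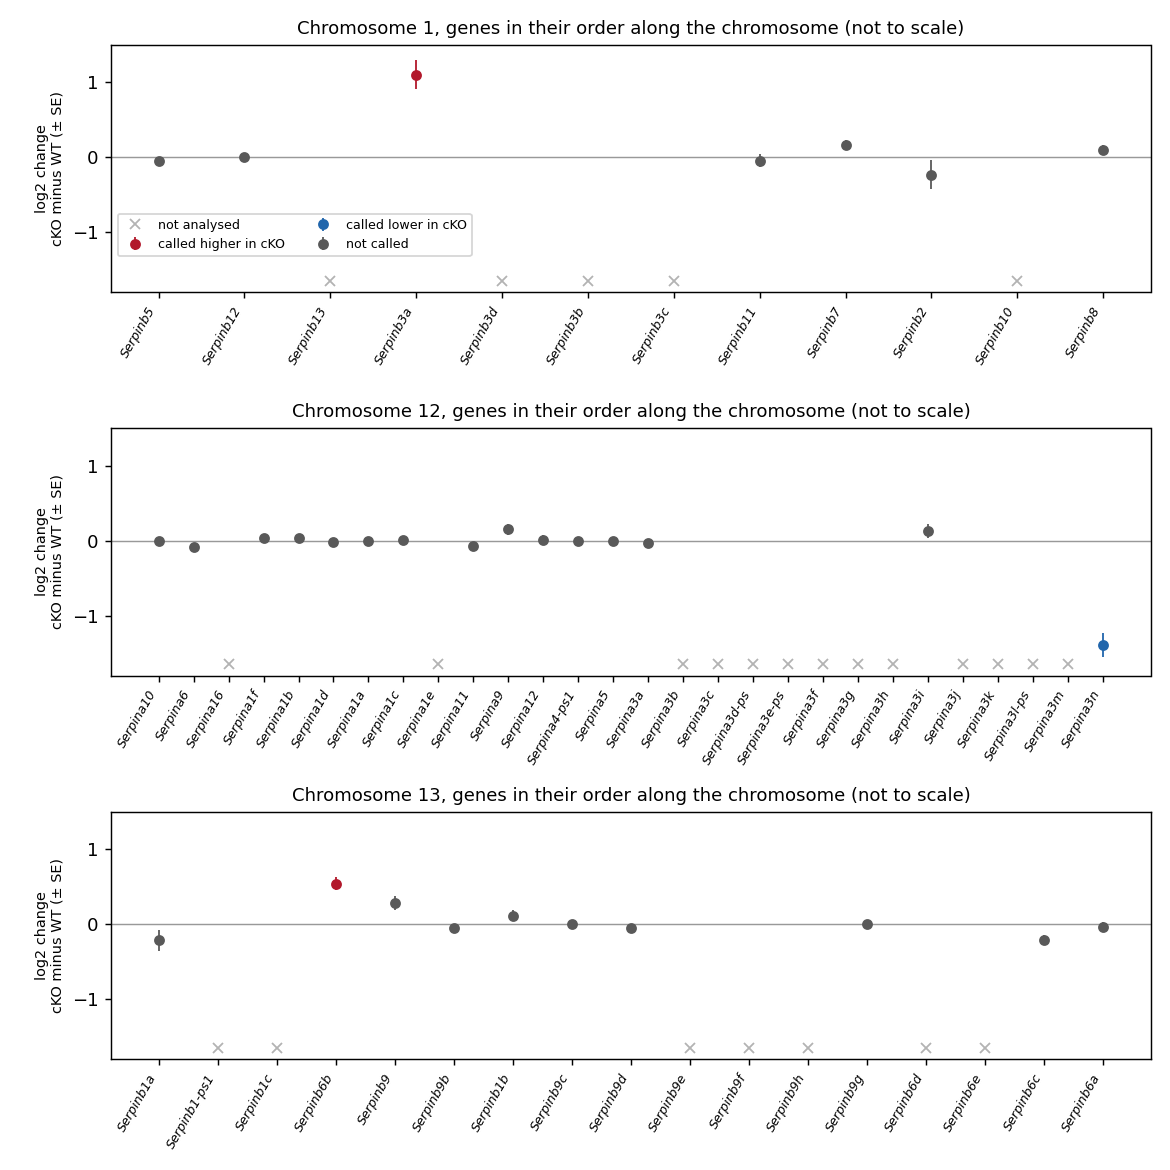
Log2 change, G9a cKO minus G9a WT, with its limma standard error, for serpin genes in their order along chromosomes 1, 12 and 13; positions are ranks, and grey crosses mark genes of the cluster that were not analysed here. Each cluster holds 1 called gene, at 1.10 for Serpinb3a, -1.39 for Serpina3n and 0.54 for Serpinb6b, with the other genes between -0.23 and 0.28.

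More than 1 probe set read 13 of the members, and the probe set with the highest mean stood for the gene. Of the 15 further probe sets 1 was called when all probe sets were tested together, where 1.77% of all were called. It belonged to Serpinb3a and read 6.04, 6.54, 6.63 and 6.97 in cKO arrays, against 5.19, 5.34, 5.81 and 5.13 in WT arrays, a log2 change of 1.18 (SE 0.19). The third Serpinb3a probe set was dim and changed by 0.24 (SE 0.08). Both further Serpinb3a probe sets carry the suffix that marks probes shared with other transcripts. The probe sets of Serpinf1 disagreed: the further one averaged 6.03 ± 0.06 in cKO and 6.10 ± 0.03 in WT (SD, n = 4 each), a log2 change of -0.07 (SE 0.05). The second probe set of Serpinb5 changed by 0.02 (SE 0.09) and that of Serpinb8 by 0.0059 (SE 0.21). That of Serpinh1 changed by 0.16 (SE 0.09), close to the first, while that of Serpinb9 was dim and changed by 0.04 (SE 0.07). The further 2 probe sets of Serpini1 were dim and changed by -0.11 (SE 0.03) and -0.08 (SE 0.05). In the first of these the groups did not overlap, at 3.56, 3.59, 3.55 and 3.58 in cKO arrays against 3.67, 3.68, 3.69 and 3.69 in WT arrays. The second Serpina1b probe set, also dim and not overlapping, changed by 0.09 (SE 0.04), and neither was called. Serpina3n and Serpinb6b had a single probe set each.

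**Figure D5:**
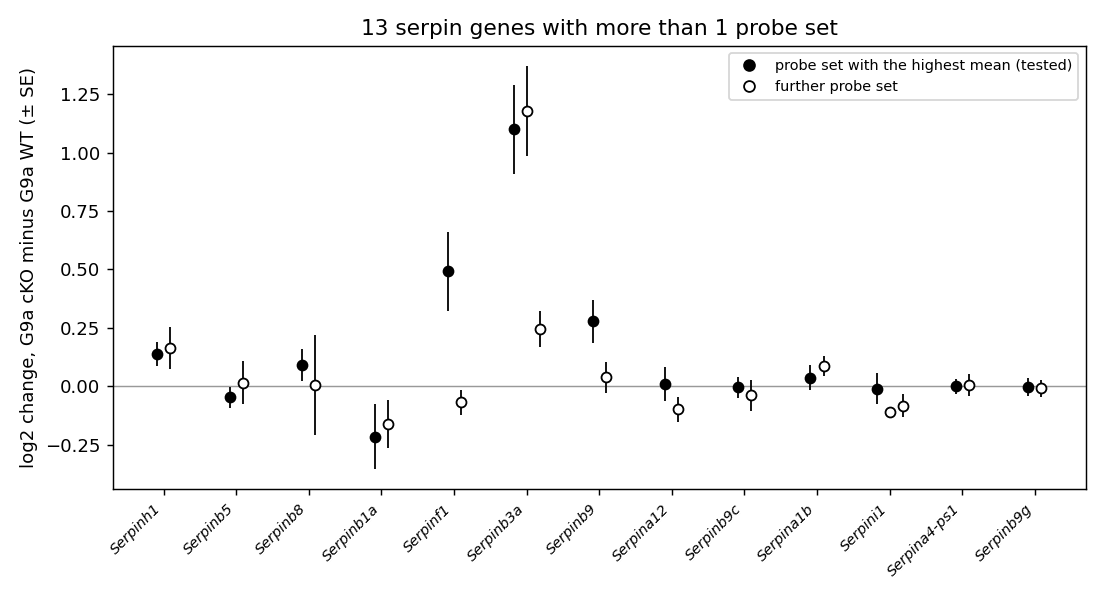
Log2 change, G9a cKO minus G9a WT, with its limma standard error, of every probe set of the 13 serpin genes that have more than 1; filled points are the probe sets with the highest mean and open points the others, with genes ordered by brightness. Both bright Serpinb3a probe sets lie above 1, and the Serpinf1 probe sets lie on opposite sides of 0.

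Genes that work with serpins were read as lists, beside the 2.76% called over all genes. A list of known or possible serpin targets held 34 measured proteases, among them plasminogen activators, kallikreins, granzymes and cathepsins. None was called, and the median log2 change was -0.01. The nearest to the threshold were Tmprss13 at 0.21 (SE 0.05) and Ctsz at 0.23 (SE 0.07). Among 24 measured inhibitors of other families 1 rose and 1 fell. Tfpi, which encodes the tissue factor pathway inhibitor, averaged 4.75 ± 0.05 in cKO and 4.22 ± 0.09 in WT, and Itih5, an inter-alpha-trypsin inhibitor heavy chain, averaged 7.39 ± 0.16 in cKO and 8.12 ± 0.13 in WT (SD, n = 4 each). Of 9 receptors and cofactors Vldlr fell, a receptor that takes up serpin and protease complexes, at 7.02 ± 0.08 in cKO and 7.67 ± 0.29 in WT (SD, n = 4 each).

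Pathways known to act on serpin genes were examined as lists too, beside 1.92% of all genes called higher and 0.836% called lower. Of 24 genes of the acute phase and STAT3 response, to which Serpina3n responds, none was called, although 20 lay below 0, with a median log2 change of -0.09. Stat3 itself averaged 9.60 ± 0.04 in cKO and 9.86 ± 0.16 in WT, and Junb 8.82 ± 0.12 in cKO and 9.33 ± 0.30 in WT (SD, n = 4 each). Of 18 genes of the TGF-beta pathway 2 fell: the collagen gene Col1a1, at 6.17 ± 0.19 in cKO and 7.08 ± 0.11 in WT, and the repressor gene Bhlhe40, at 6.47 ± 0.26 in cKO and 7.41 ± 0.34 in WT (SD, n = 4 each). The median over all genes was 0.0027, and among these 5 lists that of the acute phase list lay furthest from it. The summed linear signal of the acute phase list overlapped between genotypes, at 7348 to 8416 in cKO arrays and 7635 to 9854 in WT arrays. Any part of these pathways in the differences of the serpin genes was not tested.

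Markers of other cells that make serpins were read beside these results. Fibroblasts make Serpina3n and Serpinf1; of 9 measured fibroblast markers 1 fell, Col1a1, and 7 were dim. Their summed linear signal was 263 to 284 in cKO arrays and 324 to 344 in WT arrays, and 195 to 209 in cKO against 189 to 207 in WT without Col1a1. Pdgfra and Lum read 3.88 and 3.89 in cKO and 3.92 and 3.86 in WT, near the bottom of the scale, while Dcn, the other marker that was not dim, read 5.70 in cKO and 5.67 in WT. Suprabasal keratinocyte markers, of which 7 were measured, had 1 gene higher (Sbsn) and 1 lower (Krtdap), and summed to 6960 to 7643 in cKO and 6229 to 7282 in WT, and to 2521 to 3064 in cKO and 2462 to 3220 in WT without those genes. Of 9 macrophage markers none was called, all were dim, 7 lay below 0, and their sum was 230 to 244 in cKO and 234 to 279 in WT. Of 6 markers of T and natural killer cells 1 was higher, Thy1, with sums of 286 to 353 in cKO and 254 to 263 in WT; without Thy1 they were 134 to 140 in cKO and 135 to 145 in WT. The other 11 of the 14 marker lists held no called gene; with 5 to 9 measured genes a list and 2.76% called over all genes, nothing is read from these counts. The part of any of these cells in the differences of Serpina3n, Serpinb3a and Serpinb6b was not tested.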

How the data were processed

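The authors deposited log2 expression values per probe set, for which the submitters' processing notes name RMA without version or settings. Per the labels, 25 ng of total RNA were amplified with 17 cycles. The values ran from 3.09 to 13.1 and were not normalized again; 0 columns belonged to other samples. The platform annotation gave 1 gene symbol to 28898 of 45141 probe sets, 551 had several, and the Entrez identifiers of all 39 members matched the same symbol in RefSeq (GRCm38.p6), used for names, gene order and the start regions.

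For each gene the probe set with the highest mean was fitted in limma 3.58.1 (R 4.3.3, lmFit, eBayes with trend) across all 17097 genes, 4 cKO against 4 WT arrays, without covariates, adjusted by Benjamini-Hochberg, and tested on simulated data. Errors are SD over animals or the limma SE. The number of arrays limits precision. Each title names an animal and a replicate number, taken as separate animals.

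Alternatives covered normalization, dim probe sets, the probe set per gene, the variance model, the threshold, the replicate block and leaving out each array. Members, lists and markers were chosen with earlier results of these data known. Array values are given for members that were called, did not overlap, or were among the 3 brightest of a clade; Serpinb1a, Serpinb2, Serpinb6a and Serpinb7 are exceptions; list genes are up to 4 called per list, or the 2 with the lowest p, and Cd34, Pdgfra, Lum and Dcn were added after their values were seen. Figures used matplotlib 3.10.9.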

Additional observations from a re-analysis of the deposited data

Results flagged for a closer look

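Among the 34 groups of 4 arrays examined for 17 members, 1 array stood apart by Dixon's criterion for 4 values, which chance passes in about 1 group in 20. Serpinc1 in cKO replicate 1 read 4.40, while the other cKO arrays read 4.23 to 4.24. The gene is dim, and no result above rests on it.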

How the results depend on the processing

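The count of called members, 3, and the names Serpina3n, Serpinb3a and Serpinb6b were the same after quantile normalization again, a common median, the mean of all probe sets, eBayes without trend, array weights, a threshold of 0.1, and with the replicate number as a block (3 called). It was 3 to 4 without single arrays; the fourth, without WT replicate 4, was Serpinb7. Without the dimmest 40% of all probe sets 13 members were left, 2 of them called, Serpina3n and Serpinb3a, while Serpinb6b was left out. Counted by probe set 4 were called. At a threshold of 0.01 it was 1, Serpina3n. The median log2 change ran from -0.015 to 0.011 without single arrays, and was 0.091 where dim probe sets were left out. With all probe sets kept, it was -0.0081 over the 28 dim members and 0.091 over the 11 members above the dim limit. Over all alternatives the log2 change stayed within -1.55 to -1.27 for Serpina3n and 0.84 to 1.29 for Serpinb3a. That of Serpinb6b stayed within 0.47 to 0.60, but Serpinb6b had no value where dim probe sets were left out. Over all genes, the 472 calls became 268 with the block, 732 with array weights, 258 and 296 without cKO replicate 2 or 4, and 304, 262 and 796 without WT replicate 1, 3 or 4. Same-numbered arrays did not deviate together (correlations across genes of -0.53 to 0.03). The labels do not say whether the numbers pair animals, and these correlations cannot settle it, as paired animals need not deviate together. Of the 39 members 28 were dim, near the bottom of the scale, which limits the size of a change that could be read there.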
